A study of Drosophila melanogaster with 2 samples.

Results

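Binding of Krüppel (Kr) was examined at the core genes of the Hedgehog pathway, which are hedgehog (hh), patched (ptc), cubitus interruptus (ci) and smoothened (smo). These 4 of the 13945 protein-coding genes annotated on the arms were taken by name, and every peak summit in the gene body or within 10 kb of it was assigned to the gene. The peaks came from ChIP-seq of whole Drosophila melanogaster embryos, both sexes mixed, aged 0 to 10 h. All embryos were of the transgenic strain Kr-GFP, in which Kr is fused at its C terminus to GFP, given as eGFP in the sample descriptions, and the precipitation used an anti-GFP antibody. The embryos formed 1 group of 2 biological replicates, to which the labels give the numbers 2 and 3, and no untagged embryos were analysed here. The lists used were permissive ones of 30000 peaks, from either replicate and from their pooled reads, and a shorter list of 2102 peaks thresholded by irreproducible discovery rate (IDR). By signal, IDR peaks were the pooled peaks of ranks 1 to 2102, with the same values. Signal is the authors' value per peak, of unknown scale, and rank 1 is the highest peak of a list. The lists hold no read counts, so library depth is unknown. Whole embryos hold many tissues, and neither the cells in which a peak arose nor an effect on a nearby gene can be read from these lists.

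Hedgehog signalling passes between neighbouring cells of each segment. The Hh ligand is made in cells that express engrailed, and it binds Patched on adjacent cells. Unbound Patched holds the membrane protein Smoothened inactive, and ligand binding releases it. Active Smoothened stops the cleavage of Ci, the zinc-finger factor of the Gli family, which then activates targets such as ptc, wingless and decapentaplegic in place of its repressor form. In the embryo the pathway maintains the segment borders after the gap genes have laid out the body plan. Kr is a gap gene, and its zinc-finger protein acts mainly as a repressor.

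The sequences at the hh and ci IDR summits are shown. None of them held the core word for Kr, AAGGGTT, in the 201 bp around the summit. The windows of the ptc IDR summits, which are not printed, lacked the word as well. Coordinates are dm6 and start at 1, and all 4 sequences are given on the plus strand. Capitals mark letters that differ by at most 1 letter from AAGGGTT on either strand, or that spell the shorter word GGGTTA on either strand. The windows follow in the order of the IDR ranks of each gene.
hh rank 508, chr3R:23133662-23133862: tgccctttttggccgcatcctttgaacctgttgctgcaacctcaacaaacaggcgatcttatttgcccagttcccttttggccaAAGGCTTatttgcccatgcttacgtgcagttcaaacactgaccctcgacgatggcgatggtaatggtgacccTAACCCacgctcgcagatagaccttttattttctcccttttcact
hh rank 1506, chr3R:23131603-23131803: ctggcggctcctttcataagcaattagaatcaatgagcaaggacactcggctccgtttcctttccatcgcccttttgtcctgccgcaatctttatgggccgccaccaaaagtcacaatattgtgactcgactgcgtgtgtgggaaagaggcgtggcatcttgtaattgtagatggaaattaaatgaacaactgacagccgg
ci rank 426, chr4:59128-59328: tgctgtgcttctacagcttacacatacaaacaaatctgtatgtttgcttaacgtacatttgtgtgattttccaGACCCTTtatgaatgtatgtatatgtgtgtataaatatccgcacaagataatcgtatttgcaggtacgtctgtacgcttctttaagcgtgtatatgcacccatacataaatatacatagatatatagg
ci rank 658, chr4:60007-60207: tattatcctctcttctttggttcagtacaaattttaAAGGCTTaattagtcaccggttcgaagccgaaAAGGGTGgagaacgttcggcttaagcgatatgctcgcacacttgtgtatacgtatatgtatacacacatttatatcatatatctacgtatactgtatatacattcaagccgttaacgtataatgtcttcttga
The window of hh rank 508 held 1 near match and the shorter word, that of ci rank 426 held 1 near match and that of ci rank 658 held 2. A near match of this kind stood in 51.2% of all IDR windows, so its presence is common.

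Kr peaks of the IDR list lay at 3 of the 4 genes, hh, ptc and ci, where 27.2% of all protein-coding genes had at least 1 by the same rule. None lay at smo. Their number was 4 at ptc, 2 at hh and 2 at ci, 8 in all. None of the 8 summits was within 500 bp of any transcription start site (TSS) of a protein-coding gene, and the nearest was 1596 bp from one. By annotation 5 lay in introns and 3 between genes. In the whole IDR list 41.2% of summits were in introns, 28.1% between genes and 28.9% in promoters, taken as 500 bp to either side of a TSS.

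**Figure D1:**
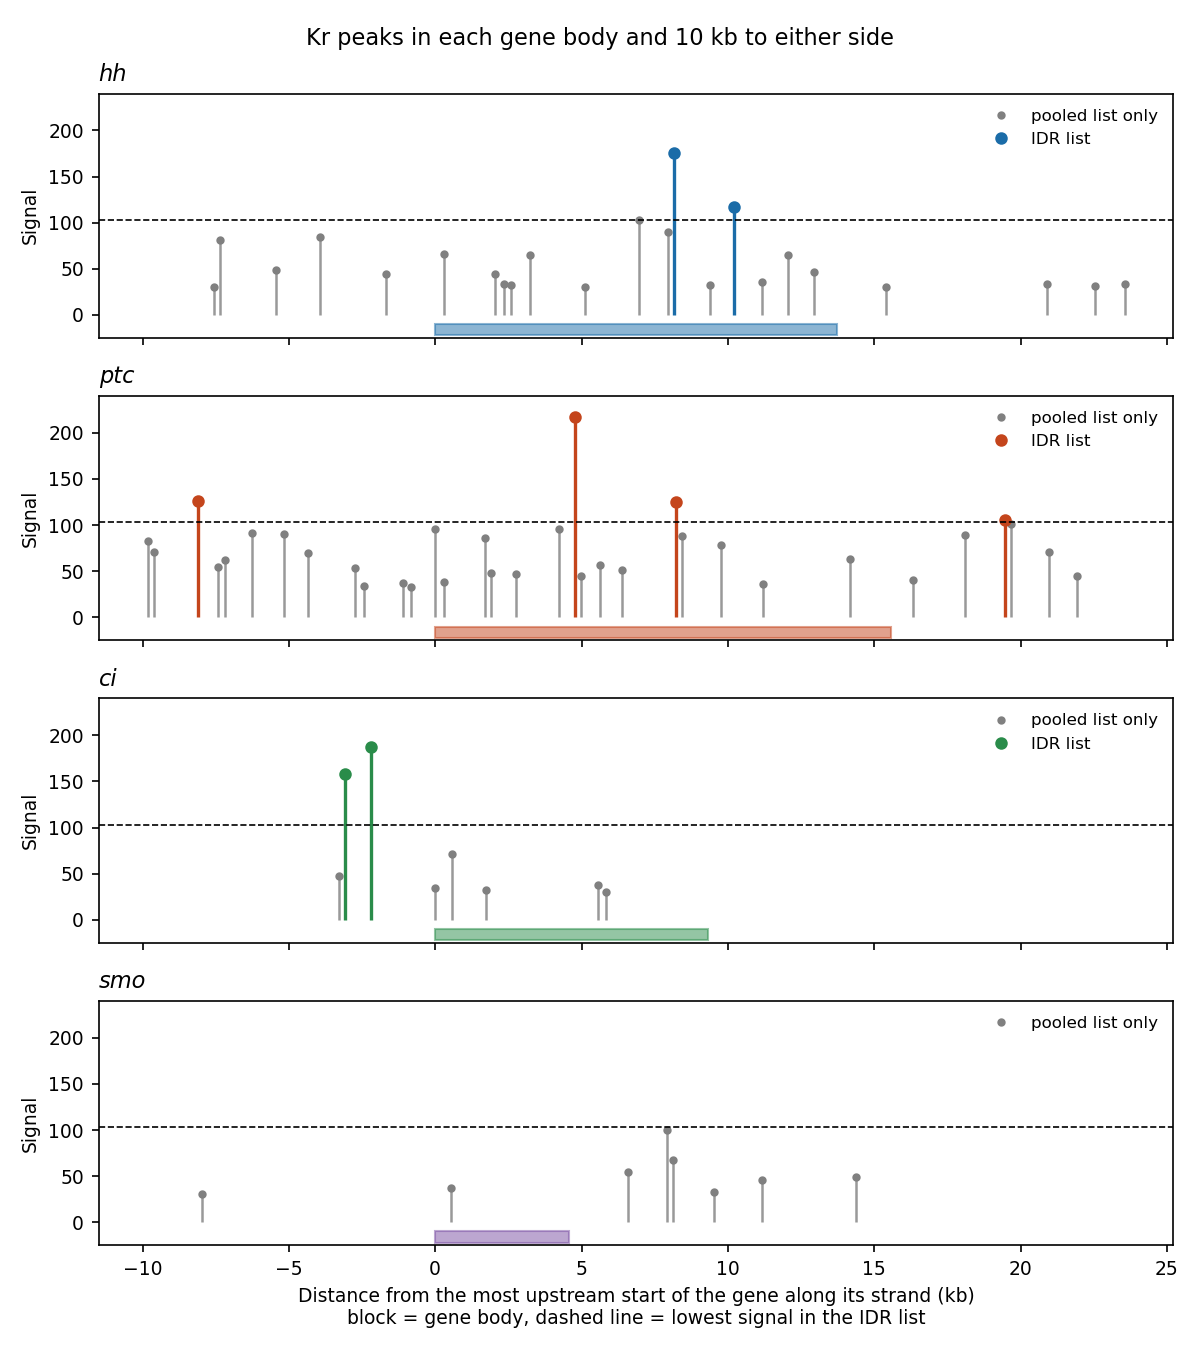
Pooled signal of each peak in the body of hh, ptc, ci and smo or within 10 kb, against distance in kb from the most upstream start of the gene along its strand. Coloured points are IDR peaks and grey points are in the pooled list only. The IDR peaks of hh sit inside the gene, those of ci upstream, those of ptc on both sides and inside, and smo has none.

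The ligand gene hh (FBgn0004644, chr3R:23128169-23141906, minus strand) had both of its IDR peaks inside the gene. The higher one, at chr3R:23133542-23133981, lay in intron 1 of 2, 8144 bp downstream of the TSS. Its pooled signal was 176 (rank 508), with 105 in replicate 2 and 78.6 in replicate 3 (mean 91.6 ± 18.4, SD, n = 2). It ranked 544 and 481 in the permissive lists of replicates 2 and 3, so its place was alike in both. The lower one, at chr3R:23131483-23131922, lay 2059 bp away in intron 2, and 10203 bp from the TSS. It ranked 1506 with a signal of 117. Replicate 2 gave 58.4 and replicate 3 gave 54.4 (mean 56.4 ± 2.85, SD, n = 2). For these peaks the nearest TSS of any gene was that of CG31457, which lies just beyond the 3′ end of hh, at 5781 and 3722 bp. Counted by nearest TSS, hh therefore had 0 IDR summits.

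Weaker summits at hh lay in both introns, in a coding exon, at its promoter, upstream and beyond its 3′ end. A summit in intron 1, 6974 bp from the TSS, ranked 2135 with a signal of 102, just under the lowest IDR signal of 103. Its signal was 57.2 in replicate 2 and 43.9 in replicate 3. A further one at 7943 bp ranked 2970 with 89.5, and its replicate signals were 89.1 and 34.8. Its interval overlapped that of the IDR peak of rank 508, so it may not be a separate site. At the hh promoter the summit 310 bp into the gene ranked 5919 with 66.1, below these intronic peaks. Upstream of hh the highest summits lay 3947 and 7354 bp from the TSS, with ranks of 3371 and 3694. The first of these had 45.4 in replicate 2 and 21.8 in replicate 3. The second had 68.4 in replicate 2, and the only replicate 3 summit in reach lay 195 bp away, nearer to another pooled summit, so no value is given for it.

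The receptor gene ptc (FBgn0003892, chr2R:8649649-8665223, plus strand) had the most IDR peaks of the pathway's core genes by the 10 kb rule. It also had the highest pooled peak of these genes. That peak, at chr2R:8654327-8654542, lay in intron 1 of 5, 4786 bp downstream of the TSS, and was 216 bp wide where the median IDR peak is 440 bp. Its pooled signal was 217 (rank 283), with 98.8 in replicate 2 and 123 in replicate 3 (mean 111 ± 17.0, SD, n = 2). It ranked 657 and 132 in these replicates. It was higher in replicate 3, with a ratio of replicate 2 to replicate 3 of 0.805, at percentile 8.37 of all IDR peaks found in both replicates, whose median ratio was 1.46.

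The other IDR peaks at ptc were spread over the locus. In the same intron, 8236 bp from the TSS, the peak at chr2R:8657665-8658104 ranked 1241 with a signal of 126. Replicate 2 gave 72.7 and replicate 3 gave 59.7 (mean 66.2 ± 9.20, SD, n = 2). Upstream of the gene, 8120 bp from the TSS, the peak at chr2R:8641309-8641748 ranked 1229 with 126. Its replicate signals were 89.9 and 39.4 (mean 64.6 ± 35.7, SD, n = 2), the highest ratio of the 8 at 2.28. Beyond the 3′ end the peak at chr2R:8668907-8669346, rank 1963, was in an intron of the neighbouring Acsl, a fatty acyl-CoA ligase gene, and 1596 bp from an Acsl TSS. Its matched summits had 53.4 in replicate 2 and 56.2 in replicate 3 (mean 54.8 ± 2.01, SD, n = 2). The replicate 3 summit was 211 bp away and lay nearer to the pooled summit of rank 2186, so its value is not clearly that of this peak. By nearest TSS this peak and that at 8236 bp belong to Acsl, which left 2 for ptc.

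The ptc promoter itself held a peak that fell short of the IDR list. Its summit lay 5 bp upstream of the TSS and ranked 2538 with a signal of 95.2, with 65.2 and 32.6 in replicates 2 and 3. A further intronic summit 4241 bp into ptc ranked 2480 with 96.0. The summit just below the IDR list near ptc, with rank 2186 and a signal of 101, lay in the same Acsl intron as the peak of rank 1963. The intervals of these peaks overlapped, so they may not be separate sites.

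The gene smo (FBgn0003444, chr2L:277582-282167, plus strand), which encodes the signal transducer that Patched holds in check, had no IDR peak in its body or within 10 kb. The nearest IDR summit, near kis, lay 27473 bp from the gene. Of the 8 pooled summits at smo only 1 fell inside the gene, 525 bp from its TSS, with rank 19100 and a signal of 37.4. That summit was 127 bp from the TSS of CG17078. The best was 7910 bp from the smo TSS, in the promoter of CG3625. It ranked 2275 with 99.8, against the lowest IDR signal of 103. Replicate 2 gave 48.4 and replicate 3 gave 42.6 (mean 45.5 ± 4.08, SD, n = 2). The highest peak in the smo window was thus just under the IDR list and at the promoter of another gene.

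The gene ci (FBgn0004859, chr4:47710-57041, minus strand), which encodes the transcription factor at the end of the pathway, had its IDR peaks outside the gene, in the intergenic stretch upstream of it. The summits were 2187 and 3066 bp upstream of the more distal of its 2 TSSs and 879 bp apart. The nearer peak, at chr4:59008-59447, had a pooled signal of 187 (rank 426), with 107 in replicate 2 and 66.4 in replicate 3 (mean 86.8 ± 28.9, SD, n = 2). The farther one, at chr4:59887-60326, had 158 (rank 658), with 108 and 53.8 (mean 80.8 ± 38.1, SD, n = 2). For both, the nearest TSS of any gene was that of ci. RpS3A, a ribosomal protein gene, has its body within 10 kb of both summits, and pan, which encodes the TCF factor of Wnt signalling, has its body within 10 kb of the farther one. The remaining 6 pooled summits at ci ranked from 5056 down to 28601, well below the IDR list. The best of these was 139 bp from a ci TSS with a signal of 70.9. Chromosome 4, where ci lies, had 11 IDR summits, or 8.16 per Mb, against 10.0 on X and up to 19.5 on 2L, the extremes of the other arms.

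In each replicate's permissive list all 8 IDR summits had a distinct partner within 250 bp. Of all IDR summits 98.9% had one in both lists. At 100 bp, 7 of the 8 did, the exception being ptc rank 1963. By rank, 5 of the 8 were among the 2102 highest peaks of both replicates, against 53.9% of all IDR peaks. The exceptions were hh rank 1506 and ptc rank 1963 in replicate 2, where they ranked 2860 and 3591, and ptc rank 1229 in replicate 3, where it ranked 2912. The order of the genes by their best peak differed between replicates. In replicate 2 the best peaks were close together, at 108 for ci, 105 for hh and 98.8 for ptc. In replicate 3 ptc led with 123, followed by hh with 78.6 and ci with 66.4. The pooled order of ptc, ci and hh is therefore not settled by the replicates, whereas the best summit of smo was the lowest in each, at 48.4 and 42.6.

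**Figure D2:**
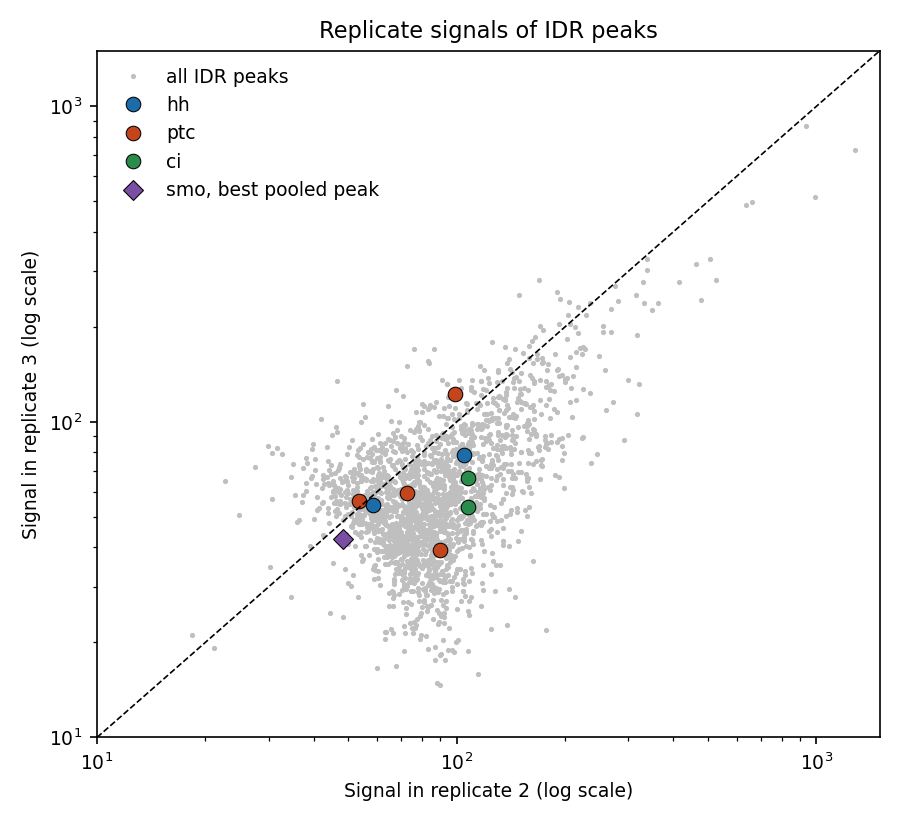
Signal in replicate 2 (horizontal) and in replicate 3 (vertical), of unknown scale and on log axes, for IDR peaks with a summit in both permissive lists. Grey points are all such peaks, coloured points those at hh, ptc and ci, the diamond the best pooled peak at smo, and the dashed line equal signal. The highest ptc peak lies above the line at 98.8 and 123, and both ci peaks lie below it.

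Having an IDR summit within 10 kb was not rare, since 3788 of the 13945 protein-coding genes had at least 1. The share rose with gene length, from 22.4% of genes up to 2000 bp to 44.2% of those over 20000 bp. In the class of 10000 to 20000 bp, which holds hh and ptc (13738 and 15575 bp), it was 38.3%. In the class of ci (9332 bp) it was 31.2% and in that of smo (4586 bp) 26.5%. At least 2 IDR summits, as at hh and ci, occurred at 9.58% of all genes, and at least 4, as at ptc, at 1.85%. The share with at least 2 was 16.4% in the length class of hh and ptc and 10.8% in that of ci. The genes were chosen with results of these data known, so these shares describe where they stand and test nothing.

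The permissive lists include background by name, and many of their summits are weak. Intervals of neighbouring summits overlap in places, as at ptc and hh, so the counts below are of summits and not of separate sites. Counted without regard to strength, the pooled list had 33 summits at ptc and 23 at hh, and 8 each at ci and smo. The median of all genes was 5 and the 95th percentile was 17. By length class the median was 8 for that of hh and ptc, 6 for that of ci and 5 for that of smo. Replicate 2 gave 34 at ptc, 26 at hh, 7 at ci and 8 at smo. Replicate 3 gave 28, 22, 11 and 11 in the same order. At least as many pooled summits as at ptc were found at 0.889% of all genes, and at least as many as at hh at 2.40%, whereas 28.8% reached the count at ci and smo. The windows of hh and ptc are longer, at 33.7 and 35.6 kb, than those of ci and smo, at 29.3 and 24.6 kb. Per kb of window the pooled summits still came to 0.928 at ptc and 0.682 at hh, against 0.273 at ci and 0.325 at smo. For comparison, the pooled list held 215 summits per Mb on 2R, the arm of ptc, and 221 on 3R, that of hh. It held 130 per Mb on chromosome 4, that of ci, and 252 on 2L, that of smo. Each of the 4 windows was thus denser than its chromosome or arm. Of the 72 pooled summits at the 4 genes, 45 (62.5%) had a partner no more than 250 bp away in replicate 2 and also in replicate 3, against 52.5% of all pooled summits. For 10 of the 45 a partner was shared with a neighbouring summit. A q-value of at most 0.05 was reached by 27 of the 72, and by 17.8% of all pooled summits. These were 17 of 33 at ptc, 6 of 23 at hh, 3 of 8 at ci and 1 of 8 at smo, where the median gene had 0 and the 95th percentile was 5. At least as many such summits as at ptc were found at 0.0861% of all genes, as at hh at 3.11%, as at ci at 14.1% and as at smo at 47.1%.

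**Figure D3:**
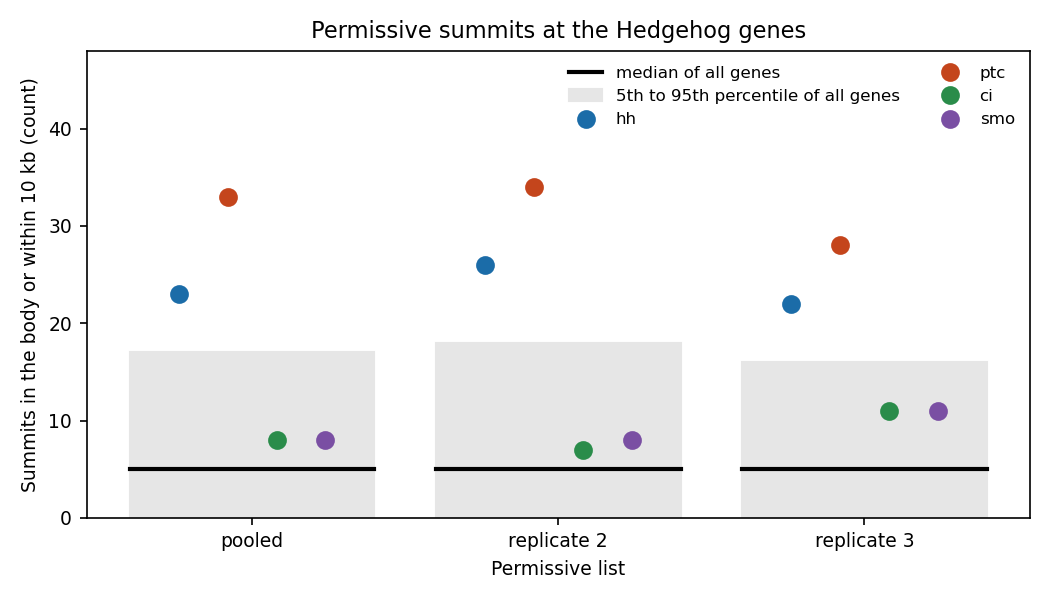
Number of permissive summits in the body or within 10 kb for each gene, in the pooled, replicate 2 and replicate 3 lists. Black bars are the median of all protein-coding genes and grey boxes their 5th to 95th percentile. The points of hh and ptc lie above the box in each list, while ci and smo lie inside it.

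Exact words around the 8 IDR summits were too few to set apart from the shares over the whole list. AAGGGTT, sought on both strands within 100 bp of the summit, was in 0 of the 8 IDR windows of hh, ptc and ci, against 12.5% of all IDR windows (Wilson 95% interval 11.2 to 14.0, counting error only). Nor was the longer word AANGGGTT, present in 14.7% of all IDR windows, found in any of the 8. The shorter GGGTTA, which overlaps these words, was in 1 of 8, at the higher hh peak, and in 12.9% of all. In the 72 pooled windows AAGGGTT stood in 2.78%, AANGGGTT in 8.33% and GGGTTA in 9.72%, against 4.96%, 6.35% and 7.997% of all pooled windows. A longer look along the loci found AAGGGTT 2 times at hh, 5 at ptc, 2 at ci and 1 at smo. These came to 0.593, 1.41, 0.682 and 0.407 per 10 kb, against 1.08 per 10 kb on the chromosome arms. Only 2 of the 10 were within 100 bp of a pooled summit, both at ptc. The first of these summits, 4335 bp upstream of the TSS, ranked 5181, and the other was the Acsl summit of rank 2186. The interval of rank 2186 overlapped that of the IDR peak of rank 1963, whose summit lay 274 bp from the word.

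The word TGGGTGGTC, a strong match to the site of Ci itself, was also sought along the loci. It stood 5 times in the ptc window, 2 times in that of hh, 1 time at smo and 0 times at ci, or 1.41, 0.593, 0.407 and 0 per 10 kb, where the arms had 0.0900 per 10 kb. The ptc promoter is a textbook target of Ci, and 3 of its 5 words lay 631, 697 and 754 bp upstream of the ptc TSS. None of the 8 IDR windows held the word, which was in 0.0951% of all IDR windows. Of the 72 pooled windows 3 held it, against 0.177% of all pooled windows. These were ptc summits 839 and 5170 bp upstream of the TSS (ranks 23912 and 2897) and an hh summit 2347 bp into the gene (rank 23909). The summits of ranks 23912 and 23909 each had a q-value of 0.663 and a partner in 1 replicate only. They cannot be told from background. The hh and ptc windows are denser in the word than the arms, so the share of all pooled windows is not a like background. The words found at hh and smo are printed in the next paragraph with 16 bases on either side, on the strand of the word, with the word in capitals. A match is a description of letters and no evidence that Ci binds there.

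The hh words lie 2436 bp downstream and 7234 bp upstream of the hh TSS, and the smo word 383 bp downstream of the smo TSS. The upstream hh word lay 120 bp from a pooled Kr summit of rank 3694, so it was just outside the window of that summit.
hh downstream, chr3R:23139450-23139490, plus strand: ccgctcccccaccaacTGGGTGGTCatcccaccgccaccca
hh upstream, chr3R:23149120-23149160, minus strand: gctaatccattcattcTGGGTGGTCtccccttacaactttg
smo, chr2L:277945-277985, plus strand: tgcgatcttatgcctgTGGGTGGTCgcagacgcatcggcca

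Beyond these 4 genes, 23 genes that act in the pathway or respond to it were listed by role, and 14 of them (60.9%) had an IDR summit in the body or within 10 kb, against the background of 27.2%. Of the 23 genes 10 were longer than 10000 bp, against 14.2% of all genes, and the list was compiled with earlier results in view. All 5 genes listed as targets had one, though no response to Hedgehog was measured in these embryos. These were rdx (also called roadkill, which targets Ci for degradation; best rank 670, 6 summits), engrailed (en; rank 357), wingless (wg; rank 1156), decapentaplegic (dpp; rank 885) and knot (kn; rank 675). Of these, rdx, dpp and kn are longer than 20000 bp, a class in which 44.2% of all genes had an IDR summit. The best peaks of all 5 had their nearest TSS at the gene itself. That of rdx stood at 89.3 in replicate 2 and 55.7 in replicate 3 (mean 72.5 ± 23.8, SD, n = 2). That of en had 109 and 94.4 (mean 102 ± 10.7, SD, n = 2).

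Among genes that carry the ligand through heparan sulphate proteoglycans, 3 of 6 had an IDR summit, against 27.2% of all genes. Of these 6, ttv, dally and dlp are longer than 20000 bp, a class in which 44.2% of all genes had one. The glypican gene dlp had 5, the best in its intron with rank 420 and signals of 135 and 71.3 in replicates 2 and 3 (mean 103 ± 44.9, SD, n = 2). Its relative dally had 3, the best with rank 1344, and sotv, an exostosin gene of heparan sulphate synthesis, had 1 of rank 1556, which lay at the promoter of lbk. None was found at ttv, botv or shf, nor at rasp and disp, which modify and release the ligand, nor at the co-receptor genes ihog and boi.

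Of the genes that act inside the receiving cell, 6 of 8 had an IDR summit, against 27.2% of all genes, and for 5 of the 6 the best peak had its nearest TSS at another gene. The kinase gene Gprk2 had the highest (rank 204, with 82.9 and 156 in replicates 2 and 3, mean 119 ± 51.7, SD, n = 2), 40 bp from the TSS of PNPase and 545 bp upstream of that of Gprk2. That of Pka-C1, the catalytic subunit of the kinase that primes Ci for cleavage, ranked 239 and lay 202 bp from the TSS of pelo. The summits of cos, Su(fu) and slmb, which scaffold, restrain or degrade Ci, ranked 1672, 1788 and 1581 and lay nearest to the TSSs of Dscam1, Past1 and Rab11. Only at nej, the coactivator of Ci, was the gene's own TSS the nearest, at 660 bp (rank 872). The kinase gene fu and the ubiquitin ligase gene Cul3 had none. By length, Gprk2 and nej are over 20000 bp, where 44.2% of all genes had an IDR summit. Pka-C1 is in the class of 10000 to 20000 bp, where 38.3% did. In the whole list of 14, 7 had their best peak nearest to their own TSS and 7 to that of another gene.

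**Figure D4:**
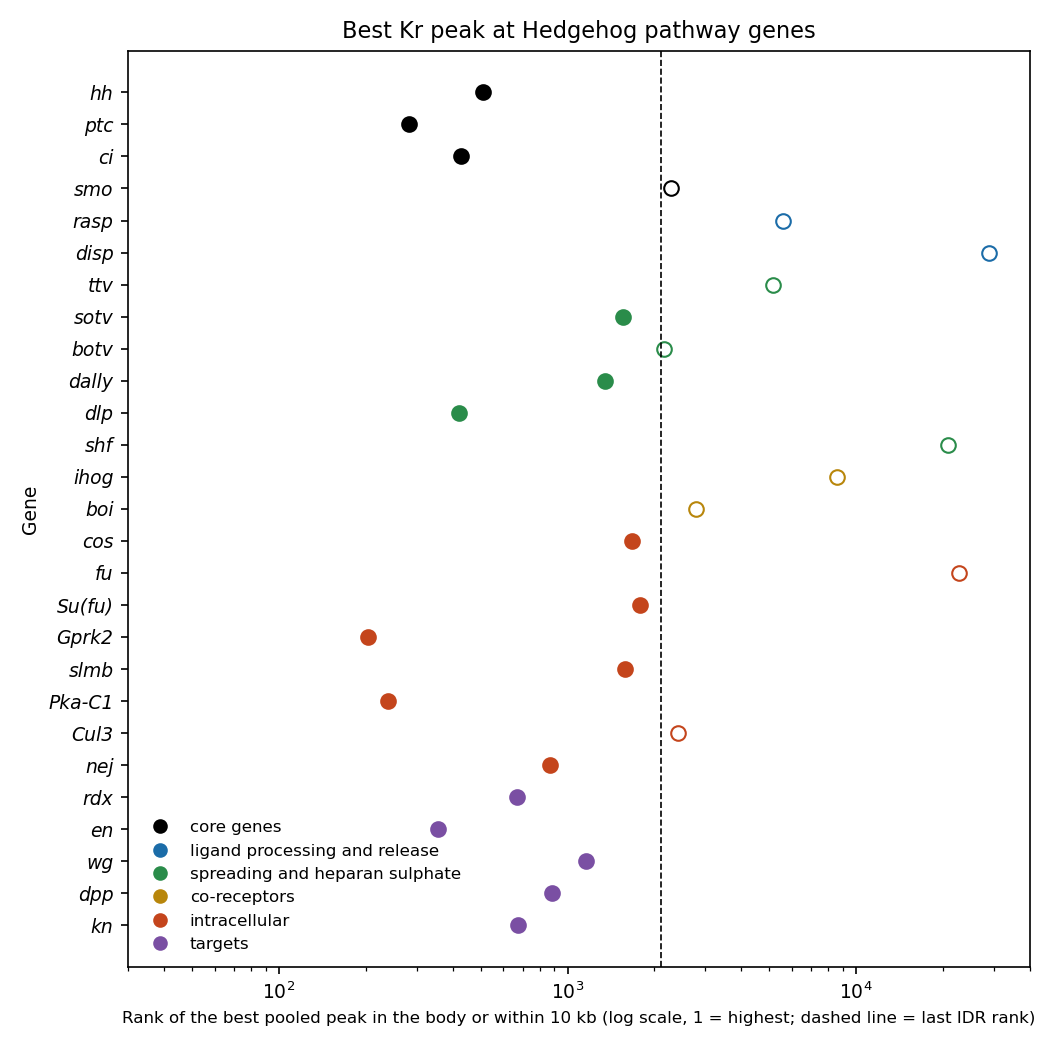
Rank of the best pooled peak in the body or within 10 kb (log axis, 1 is the highest) for hh, ptc, ci, smo and the 23 further genes, coloured by role. Filled points have an IDR summit and open points do not, and the dashed line marks the last IDR rank of 2102. All 5 genes listed as targets lie left of the line, and smo lies just right of it.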

How the data were processed

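ChIP-seq peak lists of GFP-tagged Kr were used from 2 biological replicates. Per the deposited text lists of files, the lists are in narrowPeak format on dm6, and each replicate list was derived from the alignments of that replicate and a further file whose kind is not stated. The labels name a possible control experiment, which is not analysed here. Aligner, peak caller and IDR threshold were not given in the sources used here. The authors deposited a signal value per peak and, by that format, the −log10 of a q-value, which was used to describe the lists and to count pooled summits at a q-value of at most 0.05. Summits were taken as the start plus the summit offset, and ranks by signal. All pooled peaks ended within the chromosomes of the dm6 sequence from RefSeq, and genes came from Ensembl release 115 (BDGP6). The dm3 lists were not used, since no coordinates were converted. Replicate summits were matched within 250 bp. Words were sought on both strands within 100 bp. Python 3.11.15, numpy 2.4.6, pandas 2.3.3 and scipy 1.17.1 were used, and the counting was tested on planted data.

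All samples form 1 group, so conditions were not compared and nothing was tested. The SD over 2 replicates also holds the offset in scale of their lists, and intervals cover counting error only. The genes and lists were chosen with earlier results of these data known. The text names the 4 genes with all IDR summits and their best pooled ones, the listed pathway genes, and the gene of the nearest TSS. Weaker summits were picked with their values in view. Settings tried were windows of 5 and 20 kb and the gene body alone, the upper part of the IDR list, nearest TSS only, other match distances and words, and the top 2102 peaks of either replicate used as if they were the IDR list.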

Additional observations from a re-analysis of the deposited data

How the results depend on the processing

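Of 66 recomputed values, 48 stayed within 1.5 times the reported one and 18 did not. Values of 0 that stayed 0 were counted as within, also where a narrower setting could not have raised them. Counts per gene are parts of the totals, so the tally is no measure of stability. The count of 3 of the 4 genes with an IDR summit held with windows of 5 and 20 kb and in the top 2102 peaks of either replicate alone, and fell to 2 in gene bodies alone (ci lost) and by nearest TSS (hh lost). The 8 summits became 4 in gene bodies, 4 among the higher-ranked 50% of the IDR list and 4 by nearest TSS. They were 8 to 10 in the replicates alone. The lead of ptc in number held at 5 and 20 kb and in replicate 3 alone, but not elsewhere. In gene bodies ptc and hh had 2 each, by nearest TSS ptc and ci had 2 each, and in replicate 2 alone ptc and hh had 3 each. In the higher-ranked 50% ptc had 1 and ci had 2. The share of all genes was 5.52% in gene bodies, 18.0% at 5 kb, 41.7% at 20 kb, 16.1% in the higher-ranked 50%, and 25.6 to 29.1% in the replicates alone. The wider list had 7 genes in gene bodies and 8 in the higher-ranked 50%, against 14. The count at smo was 0 in every setting run, but only the 20 kb window and the top 2102 peaks of either replicate could have raised it. The remaining settings narrow a count that was already 0. No looser cutoff was run, and the best pooled summit in the smo window ranked 2275. The 72 pooled summits became 27 at a q-value of at most 0.05, a setting chosen after seeing the data. AAGGGTT was in 0 of 8 windows at 50, 100 and 200 bp, GGGTTA was in 1, and AAGGGTT with 1 letter different, chosen after seeing the data, in 4. No paired analysis was possible because there is 1 group. Depth is unknown, so weak summits cannot be told from background.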

Other observations

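Words of other early factors were also sought at the 8 IDR summits of hh, ptc and ci, whose small number sets no share apart from that of the whole list. CAGGTAG, the word of the early activator Zelda, stood in 1 of the 8 windows, at the ptc summit 8236 bp into the gene, against 3.28% of all IDR windows. GAGAG, the word of the GAGA factor, stood in 2 of 8, at ptc rank 1229 and ci rank 658, against 33.5% of all. At the ptc promoter the summit 5 bp from the TSS, rank 2538, had 7 copies within 100 bp, overlapping copies included. The GC content of the 8 windows ran from 34.8% at the nearer ci summit to 52.2% at the ptc summit of rank 1241, around a median of 43.8% for all IDR windows.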
